A study of Mus musculus with 8 samples.

Results

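The authors' table of sites that differed in C-to-U editing between aged and young mouse cortex cells held 66 sites in 46 genes that carry provisional names, out of 2055 sites in 789 genes. The members were chosen by name alone. A gene was included if it was called Gm and a number, the form given to predicted mouse gene models, or if its name ended in Rik, the form given to RIKEN cDNA clones. Gm names gave 34 sites in 26 genes and Rik names gave 32 sites in 20 genes. The 21 rows of Gm37376 and 6 rows whose site began with Y were left out. Of the 46 genes, 32 had 1 listed site, 14 had 2 or more and 5 had 3 or more.

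The editing came from APOBEC1-YTH, a fusion of a cytidine deaminase to the domain that binds N6-methyladenosine (m6A), a methyl mark on adenosines in RNA. The fusion turns cytidines beside bound m6A into uridines, so that C-to-U marks stand in for the methylation. A cell is called methylated at a site where such an edit was found in it. In the aged group, APOBEC1-YTH mice that were 12 to 14 months old were given 20 mg/kg tamoxifen daily (every 24 h, 5 days), and were sampled for cortex 7 days after dosing ended. The dissociated cells were barcoded by split-pool labelling into 8 libraries, 4 lanes of each of 2 sublibraries, which are not replicate animals. How many mice were pooled, and which promoter drives the transgene, is not stated in the sources read here. The young cells, 2623 against 846 aged cells, enter only through the authors' table, and their age in months, treatment and library kit are not given there. All 8 libraries of the series are aged. A difference between aged and young cells therefore cannot be told apart from one of experiment, library preparation or depth. The series' design text describes sorted nuclei instead of whole cells. Cell type markers were not analysed here, since the table holds no expression values.

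Provisional names cover very different transcripts. Some are long noncoding RNAs with exons of their own. Others are single-exon models inside an intron of a known gene, where reads cannot be told apart by position from pre-mRNA of that gene. Others lie on the strand opposite a known gene. GENCODE M21 (mouse build GRCm38, the same as mm10) put 19 of the 46 genes in the class TEC, transcripts that still await experimental proof. It called 9 lincRNA, 6 protein coding, 5 antisense, 2 sense intronic, 2 processed transcripts and 2 miRNA. C030017B01Rik was not found by name in that annotation. Most sites, 55 of 66, were in noncoding exons, 5 were in 3' UTRs and 4 in coding sequence. The site of B830012L14Rik lay 16448 bases before the annotated start of that gene.

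Sequences around the edited base were read from the GENCODE M21 transcripts, 5′ to 3′ on the strand of the named gene. The windows below show the kinds of context in which the edits were found. Capitals mark the edited C and the base before it. The first pair are coding sites, the next 3 are intronic or chromosome 7 transcripts rich in A, and the last 4 are sites discussed below for their level, their copies or a base other than A before the C.

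D430041D05Rik at 104230387: cactgtacaACgggaagccac
6430548M08Rik at 120159990: ccaggaagaACgggatgacag
2900027M19Rik at 9687897: caaaaaaaaACaccagaaagt
Gm44560 at 59288611: aaaaaacaaACaaaaacaaac
9330162G02Rik at 59232263: aaagaacaaACaaaaacaaac
Gm13610 at 32232837: agcagtgggACatttactttt
2900079G21Rik at 112234438: tgtggcttgCCtttgttgttt
Gm27000 at 88759815: tgctagtgaACtggagtgctg
Gm23935 at 11144170: tcttgggaaACggggtgcggc

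Averaged over all cells of an age, C-to-U was higher in the aged at 39 member sites of 66 (59.1%) and lower at 27, where 41.5% of all listed sites were higher and 58.5% lower. Every listed site had passed the authors' own test, so these counts describe direction and not detection. More of the aged than of the young cells were methylated at 57 of 66 sites (86.4%), beside 75.4% of all listed sites. Among listed sites that are no member, the share was higher at 94.8% in coding sequence, 77.4% in noncoding exons and 48.7% in 3' UTRs. The mean was higher there at 58.2%, 37.2% and 23.8%, so direction varied with the region. C-to-U within the methylated cells was higher at 15 of 66 (22.7%), beside 31.9% of the 2036 listed sites with a value. The exact 95% intervals of the share were apart with aged cells higher at 35 sites (47.4% over the table) and with aged cells lower at 4 (15.1% over the table), and they overlapped at 27. At 18 of 66 sites the share was higher in aged cells while the mean was lower, beside 725 of all 2055 listed sites. A cell with no read at the position counts as unmethylated in the share. The mean was read as running over the same cells, which the authors' table does not state. Share and mean then both move with expression and depth, whose part was not tested.

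Counted by gene, the site with the largest difference was higher in aged cells in 31 of 46 genes (67.4%), beside 55.8% of all listed genes. All listed sites were higher in 24 genes, all were lower in 15, and 7 genes had both, but 32 of the 46 genes had 1 listed site. Among the 14 genes with 2 or more sites, all were higher in 5 and all were lower in 2. The same counts over all listed genes are not given here. The Gm sites were higher in mean at 19 of 34 and the Rik sites at 20 of 32. Within methylated cells 5 of 34 Gm sites and 10 of 32 Rik sites were higher in aged cells. The median member site was methylated in 0.839% of young and 2.54% of aged cells, against 1.14% and 2.48% for all listed sites. Within methylated cells the median C-to-U at member sites was 24.2% (young) and 14.4% (aged), and over all listed sites 18% and 7.22%. The median log2 ratio of mean C-to-U, aged over young, was 0.95 for the members and -0.87 for all listed sites. No listed site has an absolute log2 ratio under 0.58, so these medians mostly repeat the counts of direction. At sites with a higher mean the median was 1.62 for members and 1.55 for all listed sites. Where the mean was lower it was -1.40 and -1.75.

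**Figure D1:**
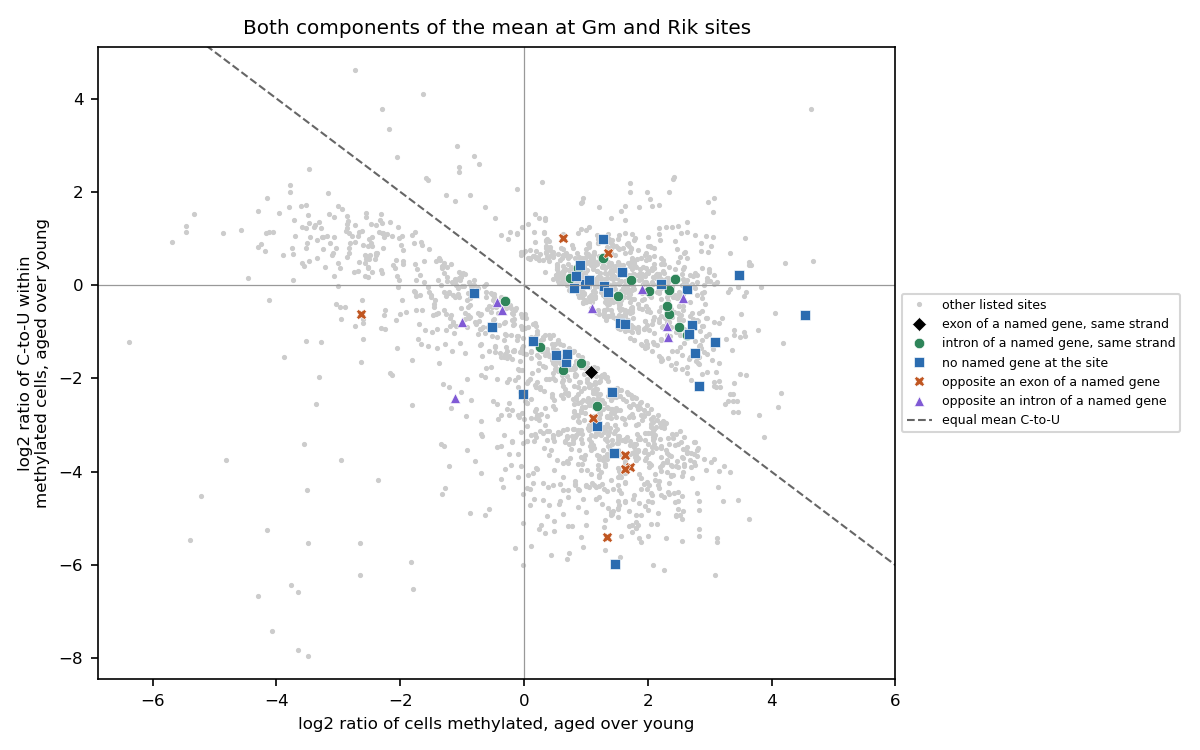
Each point is a listed site, with the log2 ratio (aged over young) of the share of methylated cells on the x axis and of C-to-U within methylated cells on the y axis, and the members coloured by what they overlap. On the dashed line both ages have equal mean C-to-U, and the empty band along it reflects the smallest log2 ratio in the table, 0.58. Most members, 57 of 66, lie right of 0, and 51 of 66 lie below 0 on the y axis.

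What the transcripts overlapped was read from the annotation. At 31 sites in 19 genes GENCODE M21 had no gene with a regular name at the position, although RefSeq gene spans of Dpp10, Norad, Lrrc7 or Kctd16 covered 10 of them. The 31 include the site of C030017B01Rik, not matched by name, which lies in an exon of the GENCODE gene AC127249.1. At 17 sites in 14 genes the site lay in an intron of a named gene on the same strand, and 1 site lay in a same-strand exon. The other members were opposite an exon (8 sites in 6 genes) or opposite an intron (9 sites in 6 genes). Sites without a named gene were higher in mean at 20 of 31, same-strand intronic sites at 12 of 17 and sites opposite an intron at 5 of 9. Sites opposite an exon were higher in mean at 2 of 8, although 7 of those 8 had a higher share of methylated cells.

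The same-strand intronic transcripts lay in 11 host genes. In the cell adhesion gene Lrrtm4, Gm44241 at chr6:80319389 was methylated in 36 young cells (1.37%, 95% interval 0.963 to 1.90%) and 47 aged cells (5.56%, 4.11 to 7.32%). Averaged over all cells, C-to-U went from 0.532% in young to 1.96% in aged cells, with a similar value within methylated cells, 38.8% and 35.3%. In Fam155a, which encodes a subunit of the sodium leak channel, 2900027M19Rik at chr8:9687897 had means of 0.686% and 2.49%. There both components were higher in aged cells, the share at 1.41% and 3.43% and the level within methylated cells at 48.6% and 72.6%.

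Gm43322, a TEC transcript in an intron of the ankyrin gene Ank2, carried 3 sites on chromosome 3, 18 bases from the first to the last. The middle site at 126975355 had the highest level in aged cells, with means of 0.162% (young) and 0.588% (aged) from 15 and 24 methylated cells. The sites at 126975344 and 126975362 had means of 0.160% and 0.395%, and 0.0588% and 0.173%. All 3 were higher in aged cells and share one A-rich stretch, so they are not independent. The intervals of the share overlapped at 126975344 and were apart at the other two. The middle site is also one of the 9 with a copy elsewhere, counted below.

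Kcnip4, whose product binds A-type potassium channels, held 4 of the intronic transcripts with 5 sites. All 5 had a higher share of methylated cells in aged cells, 2 of 5 had a higher mean, and the intervals of the share overlapped at every one. Gm43318 at chr5:48948064 was methylated in 54 young (2.06%) and 27 aged cells (3.19%), with means of 0.330% and 0.146% and levels within those cells of 16.0% and 4.57%. Gm43046 also had a lower mean in aged cells, 0.353% against 0.210%. Gm42767 went the other way, from 0.172% to 0.408%. The sites of 2900064K03Rik differed among themselves, with means of 0.648% and 1.19% at 49516771 and of 0.0408% and 0.0154% at 49515896. Kcnip4 itself had no listed site.

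The other same-strand intronic sites were higher in aged cells with 2 exceptions. Gm48267 in Cadps, which primes secretory vesicles, had means of 0.491% and 1.74%. Gm44167 in the plasma membrane calcium pump gene Atp2b2 had 0.155% and 0.730%, and Gm19445 in Pex5l, which encodes an HCN channel partner, had 0.0695% and 0.413%. Gm48582 in the kinase gene Dapk1 and Gm37814 in Frmd4a had aged means of 0.355% and 0.331%, against 0.115% and 0.100% in young cells. The intervals of the share were apart at each of these 5. One exception was 5330406M23Rik, inside the long noncoding RNA gene Lncpint, with 0.932% in young and 0.594% in aged cells from 42 and 11 methylated cells. The other was the miRNA-annotated Gm24270, described with the repeated sequences below. Of the 11 genes that hosted same-strand intronic sites, 5 had listed sites of their own.

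**Figure D2:**
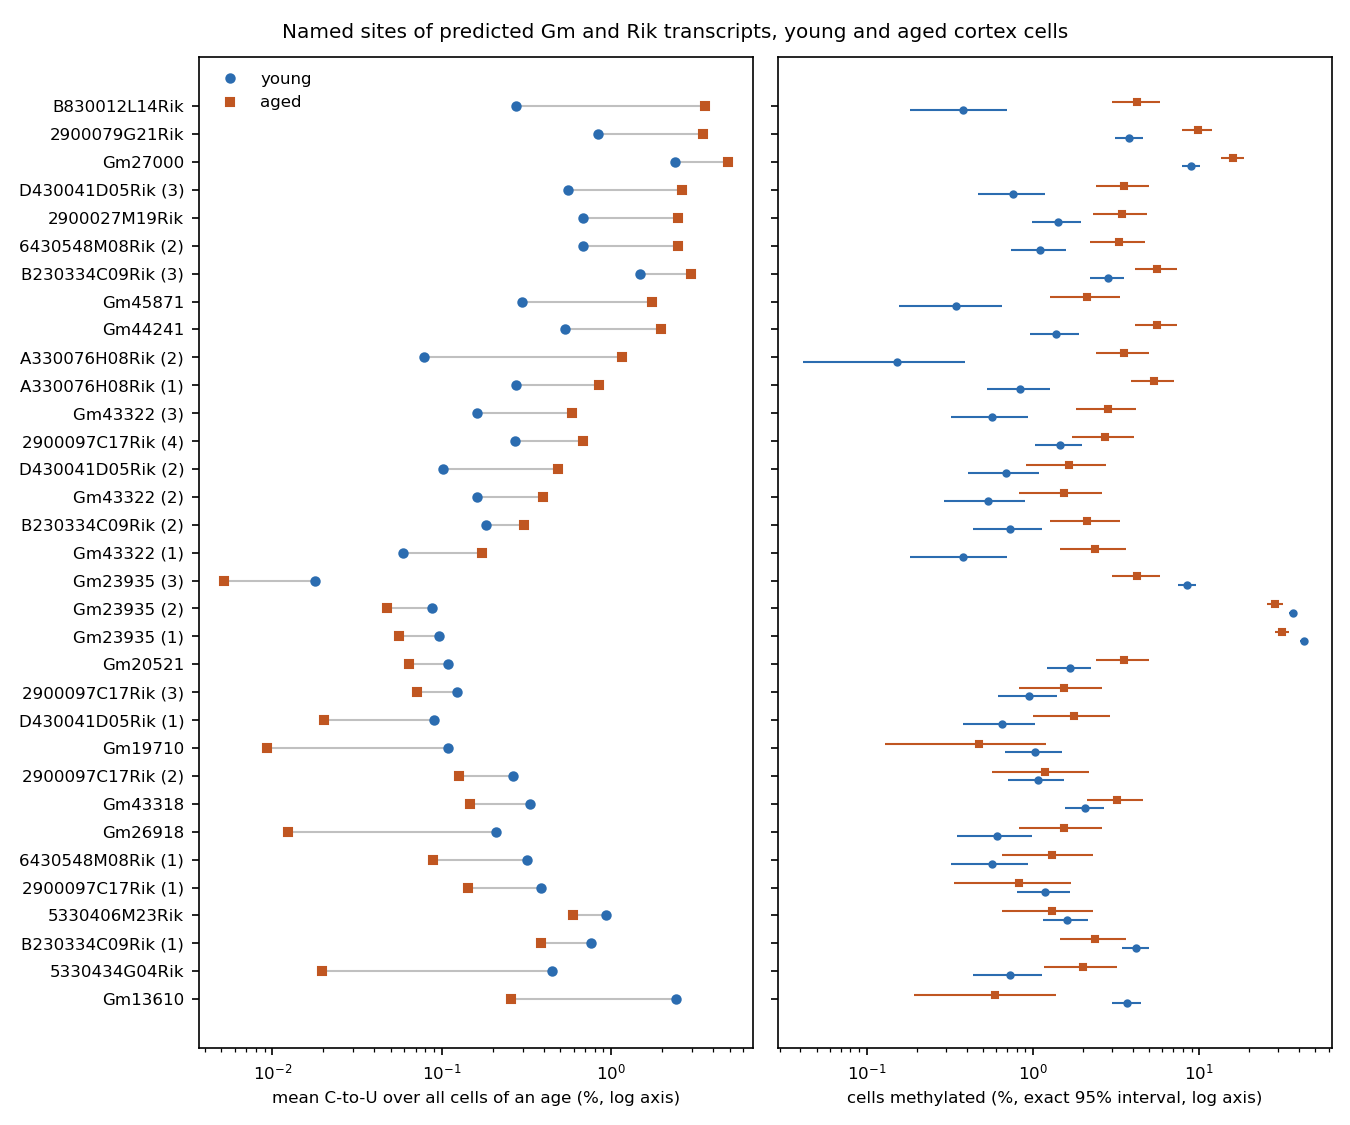
The left panel plots mean C-to-U over all cells of an age (percent, log axis) and the right panel the percent of cells methylated with its exact 95% interval, for young (circles) and aged (squares) cells. Numbers in brackets order the sites of a gene from the lowest to the highest difference in mean, aged minus young, and the top row, B830012L14Rik, has the largest difference, 0.275% in young against 3.58% in aged cells.

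Members near 2 imprinted regions, where genes are expressed from one parental copy, all had a higher mean and a higher share in aged cells, while C-to-U within methylated cells was lower at 9 of the 11 sites. This grouping was made after the values were seen. On chromosome 7, 8 of 8 sites in 5 genes around Snrpn and Ube3a were higher by mean and by share, and the intervals of the share were apart at 7. They lay between -1835 and 908 kb from the 5' end of Snrpn. On chromosome 12, 3 of 3 sites downstream of Meg3 were higher. Outside these regions 28 of 55 member sites (50.9%) had a higher mean and 46 of 55 a higher share.

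A330076H08Rik had the widest ratio of the chromosome 7 sites. At 61975056 it was methylated in 4 young cells (0.152%, 0.0416 to 0.390%) and 30 aged cells (3.55%, 2.41 to 5.02%), with means of 0.0780% and 1.16%. Within methylated cells C-to-U was lower there in the aged, 32.6% against 51.1%, so the share carried the difference. At 61944194 the share was 0.839% (0.526 to 1.27%) in young and 5.32% (3.91 to 7.05%) in aged cells. A230006K03Rik had means of 0.0597% and 0.0942% at 61202785 and of 0.106% and 0.388% at 61311524. B230209E15Rik, with 18 young and 12 aged methylated cells, had means of 0.0566% and 0.126%, and its intervals overlapped.

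Opposite introns of Ube3a, the imprinted ubiquitin ligase gene, lay 9330162G02Rik and Gm44560. The first had means of 0.147% and 0.396% at 59232263 and of 0.178% and 0.628% at 59235383. Gm44560 had 0.381% in young and 0.583% in aged cells, from 49 and 34 methylated cells. The RefSeq span of Snhg14, the long RNA that runs antisense to Ube3a, also covers Gm44560. Snhg14 itself had 16 listed sites, all higher in mean in aged cells, while the 1 listed site of Ube3a was lower in mean and higher in share. Whether reads assigned to Gm44560 belong to Snhg14 was not tested.

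On chromosome 12 the site of B830012L14Rik at chr12:109679138 was methylated in 10 young cells (0.381%, 0.183 to 0.70%) and 36 aged cells (4.26%, 3.00 to 5.84%). Mean C-to-U was 0.275% and 3.58%, or 3.70 as a log2 ratio, and the authors' deposited table gives 4.05e-15 as adjusted p. C-to-U in the methylated cells was high at both ages, at 72.1% and 84.1%. Gm37899 had sites 3 bases apart, at 109669132 and 109669135. Their means were 0.0707% and 0.177%, and 0.277% and 0.674%. Within methylated cells, C-to-U at the first of them was 12.4% (young) and 4.55% (aged), and at the other 21.3% and 21.1%. The neighbouring noncoding RNA Rian had a lower mean in aged cells at all 8 of its sites, with a higher share at 7. Meg3 was higher in mean at 60 of its 144 sites and in share at 143.

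**Figure D3:**
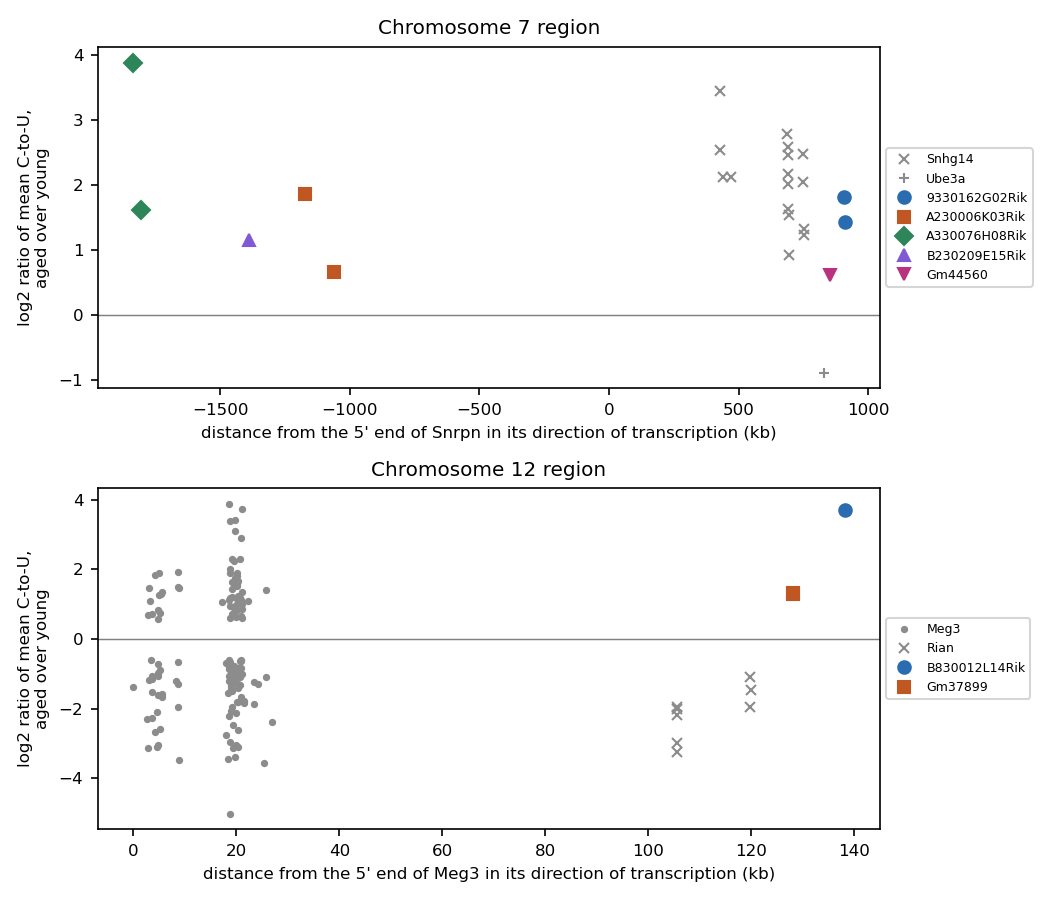
The log2 ratio of mean C-to-U, aged over young, is plotted against distance in kb from the 5' end of Snrpn (upper panel) and of Meg3 (lower panel), in the direction of transcription. Coloured symbols are the members and grey symbols the other listed sites there, and all 11 member sites lie above 0 (both Gm37899 sites fall on one symbol).

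Transcripts opposite an exon had lower mean C-to-U in aged cells at 6 of 8 sites. The larger of the exceptions was in 2900079G21Rik at chr9:112234438, opposite the 5' UTR of Arpp21, a gene for a cAMP-regulated RNA-binding phosphoprotein. It was methylated in 100 young (3.81%, 3.11 to 4.62%) and 83 aged cells (9.81%, 7.89 to 12.0%). Its mean was 0.837% and 3.48%, and both the share and the level within methylated cells, 21.9% and 35.4%, were higher in aged cells. Arpp21 had 5 listed sites, of which 1 was higher in mean. The base before the edited C of 2900079G21Rik is C and not A, as its window above shows.

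Gm13610 at chr2:32232837, opposite the 3' UTR of Prrc2b, had the largest fall among the members. It was methylated in 96 young cells (3.66%, 2.97 to 4.45%) and 5 aged cells (0.591%, 0.192 to 1.37%). The mean fell from 2.42% to 0.255%, or -3.25 as a log2 ratio, and the authors' deposited table gives 0.00408 as adjusted p. Share and level within methylated cells, 66.1% and 43.1%, were both lower in aged cells. Prrc2b had 2 listed sites, 1 higher and 1 lower in mean.

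The remaining sites opposite exons had few methylated cells. Gm26918, opposite coding sequence of Pclo, the presynaptic scaffold protein Piccolo, was methylated in 16 young and 13 aged cells, and its mean was 0.208% and 0.0124%. Its share was higher in aged cells, 1.54% against 0.610%. The level within methylated cells, a quotient that rests on how the mean was read, was 34.1% in young and 0.805% in aged cells. Gm16105, opposite the 3' UTR of the RNA-binding protein gene Celf5, showed the same split at both of its sites. It was methylated in 14 cells of each age at 81461659 and in 23 of each age at 81461697, and its means were 0.0298% and 0.00742%, and 0.0812% and 0.0165%. The site of 2610203C22Rik, opposite the 5' UTR of Vxn, had means of 0.0555% and 0.0124%. Gm37811, opposite the 5' UTR of C1ql3, had a higher mean in aged cells at 13011394 (0.0780% and 0.242%) and a lower one at 13011463 (0.0372% and 0.0112%).

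Opposite introns, 5430425E15Rik in the BK potassium channel gene Kcnma1 had means of 0.212% and 1.04%, and Gm48967 in the protocadherin gene Pcdh9 had 0.199% and 0.465%. The intervals of the share were apart at both, with aged cells higher. Gm19710, opposite an intron of Ubap2l, was methylated in 27 young and 4 aged cells and had means of 0.108% and 0.00928%. Its intervals, 0.679 to 1.49% and 0.129 to 1.21%, overlapped.

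Gm20521 was the member with a same-strand exon of a named gene at its site. At chr14:54898031 the position is coding sequence of Pabpn1, the nuclear poly(A)-binding protein, and reads from either gene model cannot be told apart by position. The site was methylated in 44 young (1.68%) and 30 aged cells (3.55%). Its mean was 0.109% in young and 0.0637% in aged cells, since the level within methylated cells was 6.52% and 1.80%.

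Among transcripts with no named GENCODE gene at the site, 2900097C17Rik on chromosome 2 had 4 sites, the most of any member gene. RefSeq (GRCm38.p6) places Norad over them, a noncoding RNA that binds Pumilio proteins. The site at 156389789 had a higher mean in aged cells, 0.269% and 0.684%. The other three had lower means, 0.262% and 0.127% at 156389797, 0.385% and 0.144% at 156391535, and 0.123% and 0.0714% at 156392240. Sites 8 bases apart therefore went in opposite directions, and the intervals of the share overlapped at all 4.

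B230334C09Rik, inside the RefSeq span of the postsynaptic gene Lrrc7, had 3 sites with different behaviour. At chr3:158073421 the share was 2.82% in young and 5.56% in aged cells and the mean 1.47% and 2.97%. At 158072552 the share was 4.16% (3.42 to 4.99%) in young and 2.36% (1.45 to 3.63%) in aged cells, and the mean 0.759% and 0.383%. The site between them, at 158072881, had means of 0.181% and 0.305%. Levels within methylated cells were close at the outer pair of sites, 52.2% and 53.4% at the first and 18.3% and 16.2% at the other.

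On the X chromosome, the lincRNA 5330434G04Rik had the lowest log2 ratio of all members, -4.50. Its mean was 0.446% in young and 0.0197% in aged cells, although 19 young (0.724%) and 17 aged cells (2.01%) were methylated. The level within them, a quotient that rests on how the mean was read, was 61.5% in young and 0.980% in aged cells. Reads per cell at the site are unknown. Of the 27 member sites with a lower mean, 14 had a level under 2% within the methylated aged cells, beside 661 of 1203 over the table. The means in young and in aged cells were 0.340% and 0.175% for Gm38073 and 0.559% and 0.935% for Gm37717, both inside the RefSeq span of Dpp10. They were 0.0987% and 0.355% for E130307A14Rik. C030017B01Rik, whose class the annotation does not give and whose site lies inside the RefSeq span of Kctd16, had 0.0966% and 0.0190%.

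The protein-coding members held sites in both coding sequence and 3' UTR. D430041D05Rik at chr2:104230387, in exon 10 of 21, was methylated in 20 young (0.762%) and 30 aged cells (3.55%). Its mean was 0.554% and 2.63% with nearly equal levels within methylated cells, 72.6% and 74.2%. Its 3' UTR sites, 16 bases apart, went in opposite directions, from 0.101% to 0.484% at 104145551 and from 0.0895% to 0.0202% at 104145567. 6430548M08Rik had the same arrangement on chromosome 8. Its coding site at 120159990, in exon 11 of 13, had means of 0.686% and 2.48%, and its 3' UTR site at 120163210 had 0.319% and 0.0891%.

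The 3' UTR site of 2900026A02Rik had means of 0.332% and 0.763%, and the coding site of 9930021J03Rik had 0.326% and 0.164%. The intervals of the share overlapped at both.

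Several members repeat sequence found elsewhere, so that reads may be placed at the wrong copy. The bases around 16 sites occurred in another annotated gene, and at 9 sites in 6 genes that gene lay elsewhere in the genome. Gm27000 on the X chromosome matches Meg3 on chromosome 12. Its site at 88759815 was methylated in 235 young (8.96%, 7.89 to 10.1%) and 135 aged cells (16.0%, 13.6 to 18.6%), with means of 2.37% and 4.86%. The matching base of Meg3, at 109544279, is also listed, with 240 young and 145 aged cells and means of 2.33% and 5.0%. The 2 sites thus had nearly the same values at both ages, and whether they count the same reads was not tested. The other Gm27000 site, at 88759757, had means of 0.0916% and 0.0500%.

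Gm23935 and Gm24270, annotated as miRNA, share bases with each other and with Gm24245 and Gm24187. Gm23935 had the largest shares of all members and the smallest levels. Its site at 11144128 was methylated in 1115 young (42.5%, 40.6 to 44.4%) and 267 aged cells (31.6%, 28.4 to 34.8%), with 0.227% and 0.177% C-to-U within those cells. At 11144170 the share was 36.8% and 28.6%, and at 11144161 it was 8.50% and 4.26%. These 3 sites and Gm13610 were the 4 at which the intervals of the share were apart with aged cells lower. Gm24270 at 56223719 was methylated in 12.1% of young and 14.4% of aged cells, with levels within them of 1.43% and 0.575%. None of the 4 sites annotated as miRNA had a higher mean in aged cells. Whether the reads at them come from a miRNA was not tested.

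Gm45871 on chromosome 18, a protein-coding model whose 3' UTR shares bases with Zfp958, Zfp120 and others, had means of 0.299% and 1.75% from 9 young and 18 aged cells. The site of Gm7292 shares bases with 2900097C17Rik and had means of 0.0414% and 0.0717%. The matching position of 2900097C17Rik is not among the listed sites.

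All 64 member sites with transcript sequence had a C there, read along the gene, beside 1970 of 2037 listed sites with sequence. An A came before the C at 51 of 64 members (79.7%, 95% interval 67.8 to 88.7%). It did at 76.8% (74.8 to 78.7%) of the 1906 listed sites that are no member and have a C on the gene's strand. For other C within 100 bases of the member sites the figure was 29.0%. The bases differed further upstream. AAAC ended at the edited C in 27 of 64 members (42.2%, 29.9 to 55.2%) and in 25.4% (23.5 to 27.4%) of those 1906 other sites. GAC, which AAAC does not overlap, was found at 7 members (10.9%, 4.51 to 21.3%) and at 19.5% (17.8 to 21.4%) of the others.

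A made up 50% or more of the bases within 20 of the edited C at 30 of 64 members (46.9%, 34.3 to 59.8%) and at 30.4% (28.3 to 32.4%) of listed sites that are no member. The members differed among themselves: 17 of 25 TEC sites (68.0%) and 0 of the 8 sites opposite an exon were this rich in A. Among non-members the figure was 45.9% in 3' UTRs, 24.4% in coding sequence and 15.8% in noncoding exons. For long noncoding RNAs with regular names, a list of 10 genes with 320 sites, it was 14.4%, and their mean C-to-U was higher in aged cells at 131 sites (40.9%). Meg3 alone gave 144 of those sites, with 17.4% this rich in A and 60 higher in mean. Member sites at 50% A or more had a higher mean in aged cells at 21 of 30, and those under 50% at 17 of 34. Over all listed sites the counts were 295 of 629 (46.9%) and 550 of 1408 (39.1%). AAAC went with A content. At 50% A or more it was found at 66.7% of member sites and 49.1% of sites that are no member. Under 50% A it was found at 20.6% of member sites and 14.7% of all listed sites. The contrasts in AAAC and in A content are thus not separate results. Whether priming of reverse transcription at A-rich stretches bears on which sites are seen was not tested.

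**Figure D4:**
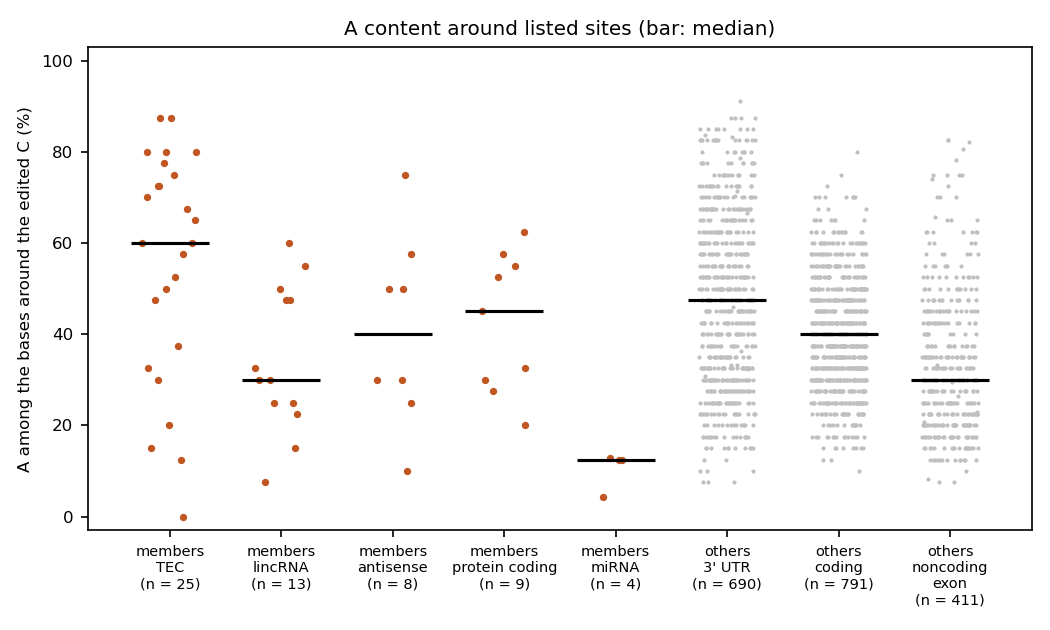
The percent of A among the bases within 20 of the edited C is plotted for each listed site with transcript sequence, members (coloured) by annotated class and other listed sites (grey) by region, with bars at the medians. TEC members have a median of 60.0%, above the 47.5% of 3' UTR sites of other genes.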

How the data were processed

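Only the authors' deposited table of differential sites was used. The members and gene lists were chosen with earlier results of these data known. The submitters' processing notes name STAR 2.7.5 and mm10. How reads were filtered, and which test gave the p-values, is not stated in the sources read here. By the file headers, the deposited percent is the share of an age's cells methylated and the deposited count is the number of those cells. The authors' log2 is young over aged, turned here to aged over young. The headers call the deposited fraction an average C-to-U, given above as percent, and do not say over which cells. It was read here as the mean over every cell of an age. Dividing that mean by the share gave C-to-U within methylated cells, which holds only on that reading. Over the listed sites the quotient was at most 98.9% in young and 100% in aged cells. The authors' p-value and adjusted p-value are printed as deposited.

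All listed sites had at least 25 methylated cells over both ages, an absolute log2 ratio of at least 0.58 and an adjusted p-value under 0.05. Reads per site are unknown. Shares of methylated cells carry Clopper-Pearson 95% intervals, which cover counting error over cells only. The intervals on preceding bases and A content are of the same kind but count sites. Sites of a gene or of one stretch are not independent, so those intervals are too narrow. Each age has 1 pooled value, so no test across animals was possible.

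Positions were deposited counting from 0 and are printed counting from 1. They were placed on GENCODE M21 by gene name (45 of 46 matched), and overlaps with other genes were read by strand. Named with values by rule were genes with 3 or more sites, the 8 largest increases and 8 largest decreases in mean, the 6 largest of each in share, and sites in another gene's exon. The other members were added after their values were seen. Scripts were tested on simulated data and run in Python 3.11.15 with pandas 2.3.3, numpy 2.4.6 and scipy 1.17.1. Alternatives changed the measure, the minimum of methylated cells, base and copy filters, and the strand of the overlap. The bases around 1 site are not reported here.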

Additional observations from a re-analysis of the deposited data

How the results depend on the processing

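Mean C-to-U was higher in aged cells at 59.1% of member sites and in 67.4% of genes. The cell minimum, the base filters and the copies were varied, and the gene with the most sites or the imprinted regions were left out. These changes gave 50% to 66.7% of sites and 61.5 to 73.0% of genes. Asking for a log2 ratio of at least 1, counted for sites only, gave 66.0%. An adjusted p under 0.01 in the authors' deposited table, also for sites only, gave 64.4%. Values over all listed sites under these cuts on log2 ratio and adjusted p are not given here. The lowest site values came without the imprinted regions (50.9%) and with under 50% A (50%), and these and the filter on copies elsewhere were chosen after seeing the data. Measured by the share of methylated cells, 86.4% of sites and 89.1% of genes were higher. Measured within methylated cells the direction turned, with 22.7% of sites and 21.7% of genes higher. Over all listed sites 75.4% were higher by share, and 31.9% of those with a value were higher within methylated cells. Gene counts over the table by these measures are not given here. Reading positions as counted from 1 gave a C at 11.1% of member sites. Counting overlap with a named gene on either strand gave 53.0% of sites in place of 27.3%. Leaving out libraries or mice was not possible, because the table pools them. No paired analysis was possible because the table gives 1 value per age. Most member sites rest on few cells, and 26 of 66 have 50 or more methylated cells over both ages.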

Other observations

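The named genes that host or face the predicted transcripts had listed sites of their own in 14 of 23 cases, 57 sites in all, of which 27 had a higher mean in aged cells. Pclo had a higher mean at 11 of 17 sites and a higher share of methylated cells at all 17, while Gm26918 opposite its coding sequence had a lower mean and a higher share. Atp2b2 had a higher mean at 2 of 7 sites and a higher share at 3, and Gm44167 in its intron was higher by both. Ank2 had a higher mean at 3 of 6 sites and a higher share at 6, and all 3 sites of Gm43322 were higher by both. Celf5 had a higher mean at 3 of 7 sites and a higher share at 6, and both sites of Gm16105 had a lower mean and a higher share. No difference in direction between gene and transcript was tested.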
